A study of Homo sapiens with 4 samples.

Results

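The genes described here make cholesterol and fatty acids. They are 32 listed genes, chosen by symbol: 5 regulators of the pathway, 1 carrier of sterols (STARD4), 18 enzymes of sterol synthesis in the order of their steps, and 8 genes of fatty acid synthesis and desaturation. All 32 were among the 25277 gene symbols measured, and all 32 passed the filter of a mean of 1 FPKM or more, which left 11484 symbols. FPKM scales sequenced fragments to transcript length and to the library's mapped fragments, so levels of different genes can be set side by side. RNA was sequenced from Mino and Z138, human lines labelled mantle cell lymphoma, a cancer of mature B cells. Each line was a stable line carrying a tetracycline-inducible vector, either the control called sc4 or a short hairpin against BTK, the kinase that passes on B cell receptor signals. All 4 cultures received doxycycline for 48 hours, the controls included. There was 1 library per line and vector, the sequence of the hairpin and what sc4 expresses are stated in no source used here, and effects of this hairpin on other targets cannot be told apart from those of BTK loss.

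Cells make cholesterol from acetyl-CoA through mevalonate, farnesyl diphosphate, squalene and lanosterol, and the same acetyl-CoA is carboxylated, joined, elongated and desaturated into fatty acids. Both routes are driven by the transcription factors SREBP1 and SREBP2, which SCAP escorts from the endoplasmic reticulum to the Golgi for cleavage when sterols are low and which the INSIG proteins hold back when sterols are plentiful. SREBP2 acts mainly on sterol genes and SREBP1c mainly on fatty acid genes, and B cells raise both routes when they grow and divide.

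The hairpin's target was low in both hairpin libraries: BTK was at 37.0 (control) and 9.84 FPKM (hairpin) in Mino, and at 51.0 and 12.4 in the same order in Z138, or 26.6% and 24.3% of control. Pairs of values below follow this order, control first. The 6 B cell markers were above 3.34 FPKM in every library, and SOX11, a mantle cell lymphoma marker, was at 19.8 to 23.6. CCND1, the cyclin D1 gene that is overexpressed in most mantle cell lymphomas, was at 591 and 600 FPKM in Z138 and at 3.18 and 2.62 in Mino, so the label's defining marker was low in Mino. The 4 T cell markers summed to 0.161 and 0.344 FPKM in Mino and to 4.53 and 4.65 in Z138 (CD3E and CD3G, with CD2 listed at 0 in every library), and the 4 myeloid markers to at most 0.482. The Z138 ratios of hairpin to control also moved with the GC content of transcripts (Spearman −0.57 across 10931 genes, against 0.12 in Mino), and in 1 library, the Z138 control, EEF1A1, a gene every cell uses, was listed at 0. A second set of ratios was therefore made with the GC and length trends removed, called corrected below. Correction turned the sign of 6 of the 32 genes in Z138 (ACAT2, ACSS2, ELOVL6, HSD17B7, INSIG2 and SCAP), against 21.3% of all genes. In Mino it turned the sign of 2 (ACACA and MVD), against 7.62%. In these bulk libraries, fewer cells of a type and less RNA per cell cannot be told apart.

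RefSeq promoter windows (build GRCh38.p14) were found for 28 of the 32 genes, and the 250 bases before each start were searched on both strands for the sterol element that SREBPs bind and for CCAAT, the box bound by NF-Y, a factor that works beside SREBPs. ACAT2, FASN, FDFT1 and SQLE had no entry. The sterol element was searched in 5 forms. CACNCCAC stood in the windows of 6 of the 28 genes (SREBF2, INSIG1, IDI1, SC5D, ACACA and SCD) and of 5.89% of all 27305 symbols. TCACNCCA stood in 3 (SREBF2, MVK and MSMO1), against 3.92% of all symbols. The stricter forms CACCCCAC (2.97% of all symbols), TCACNCCAC (1.09%) and ATCACCCCAC (0.0439%) each stood in 1 of the 28, SREBF2. The form CACNCCAC, which had the most matches among these genes, was taken for display after the matches had been seen. CCAAT stood in 20 of the 28, against 37.0% of all symbols: in 13 of 15 enzymes of sterol synthesis, 4 of 7 fatty acid genes, 2 of 5 regulators and STARD4. A gene with several starts was counted if any of its windows held the letters.

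The windows of 5 genes, picked after the matches and values had been seen, are shown to let the regulators and both branches be compared: the regulators SREBF2 and INSIG1, the enzymes IDI1 and MSMO1 of sterol synthesis, and the desaturase SCD. They run from 5′ to 3′ along the gene, and capitals mark CACNCCAC and CCAAT or their reverse complements, GTGGNGTG and ATTGG. These 2 motifs did not overlap each other in any of the 5.
SREBF2, chr22:41832855-41833104, plus strand: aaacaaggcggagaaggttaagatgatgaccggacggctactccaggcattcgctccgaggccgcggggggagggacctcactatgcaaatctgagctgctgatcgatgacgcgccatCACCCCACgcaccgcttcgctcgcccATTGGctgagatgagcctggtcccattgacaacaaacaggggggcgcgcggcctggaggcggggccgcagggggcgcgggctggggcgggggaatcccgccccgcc
INSIG1, chr7:155297628-155297877, plus strand: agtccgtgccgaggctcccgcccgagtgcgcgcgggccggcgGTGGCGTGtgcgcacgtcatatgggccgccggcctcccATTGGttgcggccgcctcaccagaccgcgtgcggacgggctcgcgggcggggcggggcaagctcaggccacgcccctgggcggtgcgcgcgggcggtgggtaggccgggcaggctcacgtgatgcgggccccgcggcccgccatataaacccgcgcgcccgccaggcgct
IDI1, chr10:1048887-1049136, minus strand: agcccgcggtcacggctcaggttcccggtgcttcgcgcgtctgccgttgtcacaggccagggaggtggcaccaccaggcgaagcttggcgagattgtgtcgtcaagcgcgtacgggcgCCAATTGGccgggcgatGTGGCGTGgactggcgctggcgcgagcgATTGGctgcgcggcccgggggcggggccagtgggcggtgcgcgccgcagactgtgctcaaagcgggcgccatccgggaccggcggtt
MSMO1, chr4:165327419-165327668, plus strand: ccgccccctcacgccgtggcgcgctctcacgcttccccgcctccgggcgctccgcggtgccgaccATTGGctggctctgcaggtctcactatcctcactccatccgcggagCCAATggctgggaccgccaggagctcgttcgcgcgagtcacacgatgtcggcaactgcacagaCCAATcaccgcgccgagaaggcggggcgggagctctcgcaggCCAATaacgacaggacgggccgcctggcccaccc
SCD, chr10:100346983-100347232, plus strand: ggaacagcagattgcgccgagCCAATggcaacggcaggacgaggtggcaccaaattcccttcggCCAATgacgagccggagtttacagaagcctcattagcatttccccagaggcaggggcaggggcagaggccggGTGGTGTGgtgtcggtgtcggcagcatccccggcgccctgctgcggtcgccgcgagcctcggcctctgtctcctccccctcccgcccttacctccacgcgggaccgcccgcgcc
The first base of CACNCCAC or of its complement lay 132 bases before the start in SREBF2, 208 in INSIG1, 115 in IDI1 and 114 in SCD. IDI1 had several starts, and the window with the most matches was shown. Its other windows held no CACNCCAC. MSMO1 had 4 CCAAT boxes and no CACNCCAC. A match in these letters is a description of the window and not a binding site.

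With the BTK hairpin most genes of the pathway were slightly lower, and none passed the test. The hairpin was tested with limma over both lines on log2(FPKM + 1), each line against its own control, and the 2 lines are the only replication. No gene of the 32 had an adjusted p under 0.05 in limma (all at 1.00), against 0.122% of all 11484 genes (14 genes). At an unadjusted p under 0.05, 5 of the 32 were lower (INSIG1, FDFT1, SQLE, DHCR7 and SCD) and none higher, where 1.69% of all genes were lower by that rule. The ratio of hairpin to control was below 0 on the log2 scale in 23 of 32 genes in Mino (51.9% of all genes), in 24 of 32 in Z138 (43.7%) and in 18 of 32 in both lines (19.4%). It was above 0 in both lines in 3 (SREBF1, HSD17B7 and ELOVL6), where 23.1% of all genes were. Corrected ratios gave the same counts, 23, 24, 18 and 3 of 32, against 51.6%, 41.8%, 19.3% and 25.9% of all genes, but the 3 above 0 in both lines were then SREBF1, SCAP and ACACA.

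The same held for the larger ratios. A ratio at least 1.2-fold lower was found for 10 of 32 genes in Mino (8.72% of all genes) and 9 of 32 in Z138 (7.13%). INSIG1, FDFT1, SQLE and DHCR7 were lower by that much in both lines, 4 of 32 against 0.862% of all genes. This threshold was chosen after the values had been seen, and the count depends on it: 7 genes were at least 1.1-fold lower in both lines (3.83% of all genes), 5 at least 1.15-fold (1.85%) and 1, SQLE, at least 1.25-fold (0.488%). The median ratio of the 32 was −0.12 in Mino and −0.16 in Z138 on the log2 scale, and that of all tested genes −0.01 and 0.03. With the GC and length trends removed, INSIG1, FDFT1 and SQLE were still 1.2-fold lower in both lines, CYP51A1 was so too (−0.29 and −0.30), and DHCR7 was at −0.31 and −0.25, just short of it in Z138.

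**Figure D1:**
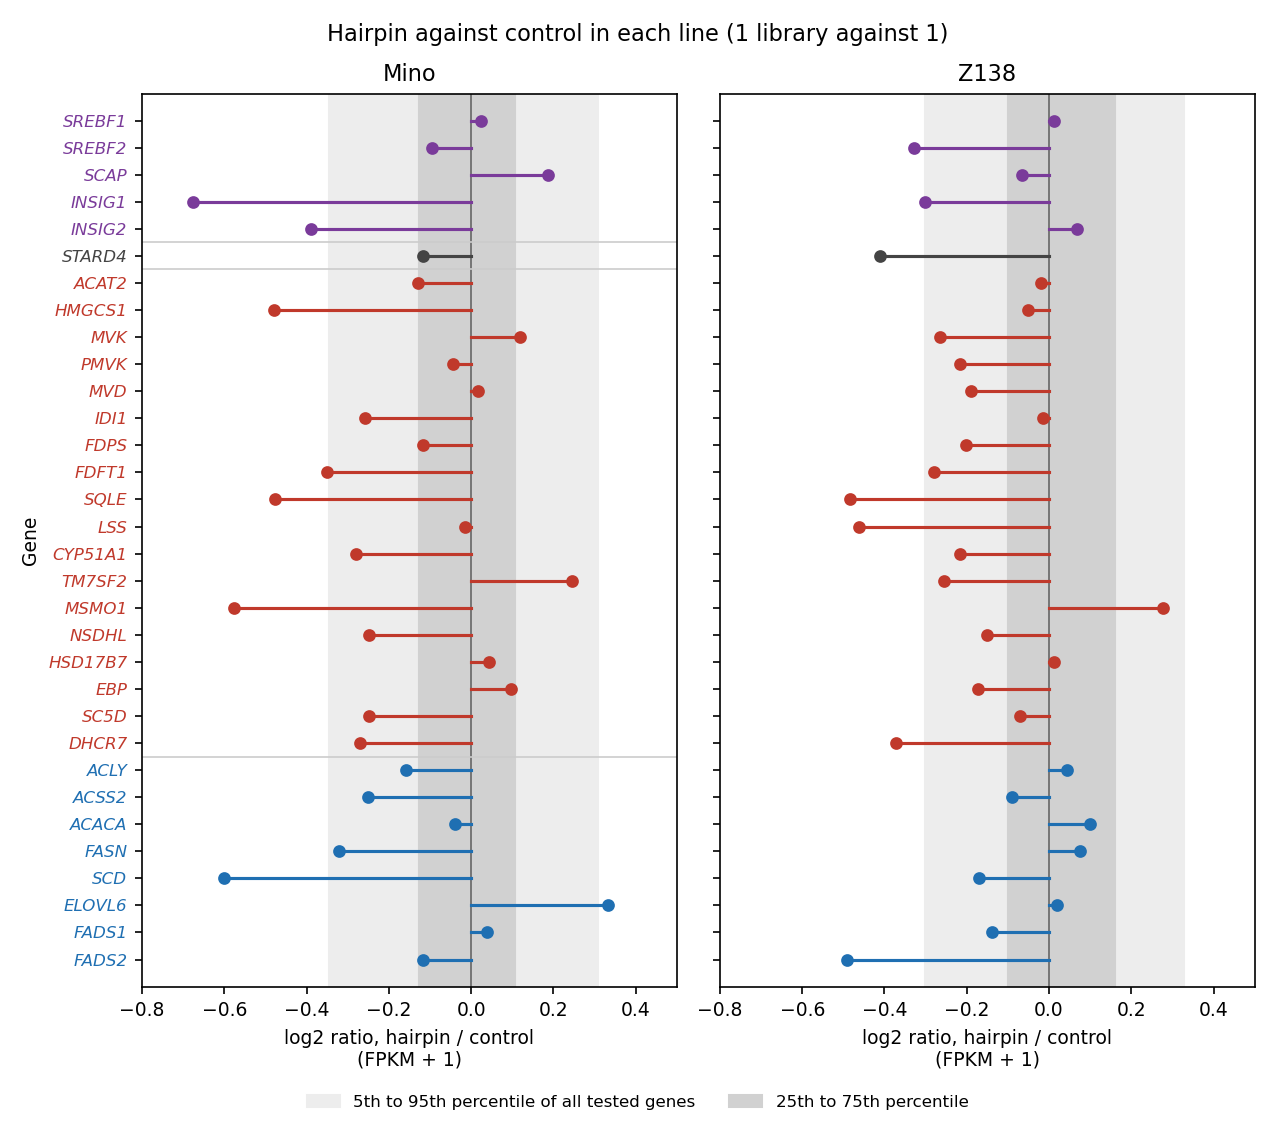
The log2 ratio of hairpin to control (FPKM + 1) of each of the 32 genes in Mino and Z138, 1 library against 1 with no error bar; regulators are purple, STARD4 grey, sterol enzymes red and fatty acid genes blue, and grey bands hold the middle 50% and 90% of all tested genes. In Z138 16 of 18 sterol enzymes lie below 0, and 4 of 8 fatty acid genes do.

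Among the regulators, INSIG1 had the ratio furthest from 0 in Mino. INSIG1 encodes the endoplasmic reticulum protein that retains SCAP, and it is itself a target of SREBPs. It was at 137.98 and 86.0 FPKM in Mino, against 21.2 and 16.99 in Z138. The hairpin library was lower in both lines, by 37.7% and 19.8%, and the lines did not overlap. The limma coefficient was −0.49 ± 0.14 (adjusted p = 1.00). This SE is moderated, drawn mostly from the variance of all tested genes, and is not the spread of the 2 lines. In Mino 0.758% of all tested genes had a lower ratio, and in Z138 5.03%. INSIG2, the second retention protein, was at 8.88 and 6.54 FPKM in Mino, against 6.60 and 6.97 in Z138. Its log2 ratios were −0.39 and 0.07, and −0.41 and −0.07 when corrected, so the sign of its small Z138 ratio depended on the correction.

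SREBF2, the gene of SREBP2, was at 120 and 112 FPKM in Mino, against 56.5 and 44.8 in Z138. Its hairpin library was 6.40% lower in Mino and 20.7% lower in Z138, so the larger of its differences was in the line where INSIG1 had its smaller one. SREBF1, the gene of SREBP1, was level within each line as deposited, at 16.8 and 17.1 FPKM in Mino and 24.3 and 24.5 in Z138. Its corrected log2 ratios were 0.01 in Mino and 0.13 in Z138. FPKM per symbol does not separate its SREBP1a and SREBP1c transcripts. SCAP was at 19.1 and 21.9 FPKM in Mino, against 28.8 and 27.4 in Z138, with log2 ratios of 0.19 and −0.07, and of 0.16 and 0.05 when corrected. STARD4, a small cytosolic protein that carries cholesterol between membranes, was at 12.5 and 11.5 FPKM in Mino. It was at 0.886 and 0.419 in Z138, where a log2 ratio of −0.41 on the FPKM + 1 scale understates the difference between 2 values below 1.

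The 7 enzymes from acetyl-CoA to farnesyl diphosphate had median ratios of −0.12 and −0.19 (Mino first, log2 scale here and below), and all 7 were below 0 in Z138. Corrected, the medians were −0.15 and −0.10, and 6 of 7 were below 0 in Z138, with ACAT2 at 0.02. HMGCS1, which makes HMG-CoA, was at 13.4 and 9.34 FPKM in Mino, against 9.61 and 9.24 in Z138. Only the Mino control stood apart, and the hairpin library was 30.4% lower in Mino and 3.90% lower in Z138. IDI1, the isomerase that makes dimethylallyl diphosphate, also had its larger difference in Mino, with 34.3 and 28.5 FPKM there and 25.3 and 24.97 in Z138. ACAT2, the cytosolic thiolase of the first step, was at 29.1 and 26.5 FPKM in Mino, against 9.61 and 9.47 in Z138.

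The kinases, the decarboxylase and FDPS had their lower ratios in Z138 before correction. MVK, mevalonate kinase, was at 9.02 and 9.88 FPKM in Mino, against 10.9 and 8.90 in Z138, so its hairpin library was the higher one in Mino and the lower one in Z138. PMVK, phosphomevalonate kinase, was at 18.5 and 17.9 in Mino, against 68.3 and 58.6 in Z138. MVD, the decarboxylase, was at 71.3 and 72.2 in Mino, against 13.4 and 11.7 in Z138. Both were nearly level in Mino and 14.2% and 13.2% lower with the hairpin in Z138. FDPS, farnesyl diphosphate synthase, was at 133 and 123 FPKM in Mino, against 118 and 102 in Z138; processed pseudogenes of FDPS can share its reads, so its level is uncertain. With the GC and length trends removed, the Z138 ratios of these 4 genes were closer to 0, at −0.15 for MVK, −0.09 for PMVK, −0.06 for MVD and −0.10 for FDPS. The corrected Mino ratios were 0.09, −0.07, −0.02 and −0.15 in the same order, so FDPS then had its lower ratio in Mino.

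The 11 enzymes from squalene synthase onward had lower medians, −0.25 in Mino and −0.22 in Z138. This split at FDFT1, the first step that leads only to sterols, was made after the values had been seen. SQLE, squalene epoxidase, a rate-limiting step of the late pathway, was at 32.8 and 23.3 FPKM in Mino, against 13.97 and 9.70 in Z138. Its hairpin library was lower by 28.98% in Mino and by 30.6% in Z138, the most alike pair of ratios among the genes that were 1.2-fold lower in both lines (−0.48 in each). The limma coefficient was −0.48 ± 0.13 (moderated SE, adjusted p = 1.00, and 0.211 when the libraries were scaled to an equal median).

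FDFT1, squalene synthase, was at 154 and 121 FPKM in Mino, against 30.01 and 24.5 in Z138, or 21.7% and 18.2% lower with the hairpin. DHCR7, which makes cholesterol from its last precursor, was at 19.9 and 16.4 FPKM in Mino, against 7.58 and 5.63 in Z138, or 18.0% and 25.7% lower. CYP51A1, the lanosterol demethylase, was at 23.9 and 19.5 in Mino, against 14.5 and 12.3 in Z138. In these 3 genes the hairpin library was below its control in both lines, and the lines were further apart than the vectors. NSDHL, a later demethylation enzyme, was at 12.02 and 9.97 FPKM in Mino, against 14.3 and 12.7 in Z138, again lower with the hairpin in both.

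Other late enzymes had unlike ratios in the 2 lines. LSS, which closes lanosterol's rings, was at 18.6, 18.4 and 17.9 FPKM in both Mino libraries and the Z138 control, and at 12.7 in the Z138 hairpin library. Its 28.9% lower value was thus seen in 1 library of the 4. MSMO1, the sterol methyl oxidase, was at 24.8 and 16.3 FPKM in Mino, against 5.64 and 7.05 in Z138, with ratios of −0.58 and 0.28. TM7SF2, a sterol reductase, had the opposite orientation, at 23.4 and 27.9 FPKM in Mino, against 41.6 and 34.7 in Z138. In these 2 genes the hairpin library was on opposite sides of its control in the 2 lines, and the difference between lines has no test because each line had 1 library per vector.

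Of the 3 remaining sterol enzymes, SC5D was lower with the hairpin in both lines, by 18.0% and 9.67%. It is the desaturase before DHCR7, and was at 7.16 and 5.87 FPKM in Mino, against 0.994 and 0.898 in Z138. EBP, the sterol isomerase, was at 58.5 and 62.6 FPKM in Mino, against 49.9 and 44.1 in Z138. HSD17B7, a ketoreductase, was at 11.6 and 11.96 in Mino, against 7.82 and 7.90 in Z138, with ratios of 0.04 and 0.01, and of 0.03 and −0.07 when corrected; a near-identical pseudogene, HSD17B7P2, can share its reads.

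**Figure D2:**
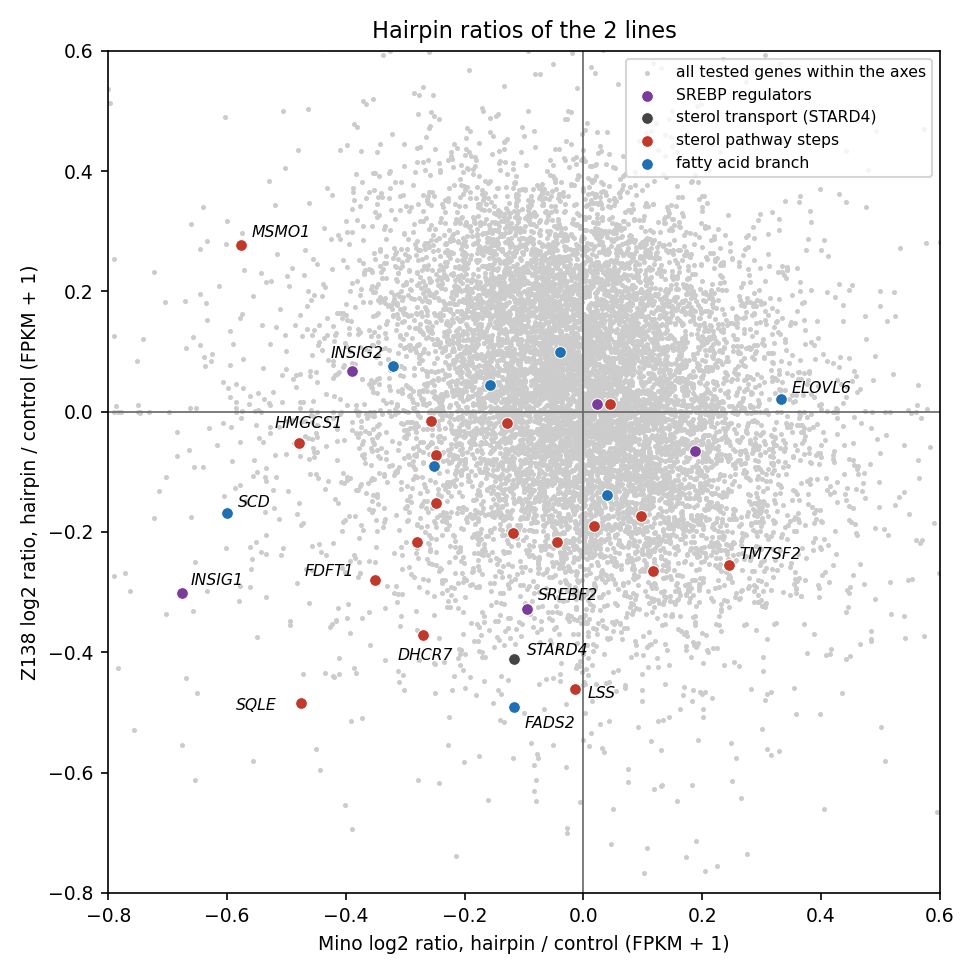
Log2 ratio of hairpin to control (FPKM + 1) in Mino (x axis) and in Z138 (y axis), with all tested genes within the axes as small grey points and the 32 genes in colour. INSIG1, SQLE, FDFT1 and DHCR7 lie at the lower left, and MSMO1 and TM7SF2 lie in opposite quadrants.

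As deposited, the 8 fatty acid genes were less uniform in sign than the sterol enzymes in Z138 only. There 4 of 8 were below 0, against 16 of 18 sterol enzymes and 43.7% of all genes. In Mino the counts were 6 of 8 and 13 of 18. Corrected, they were 5 of 8 and 14 of 18 in Mino, and again 4 of 8 and 16 of 18 in Z138. With libraries scaled to an equal median, 6 of 8 and 17 of 18 were below 0 in Z138. SCD, the stearoyl-CoA desaturase that makes oleate, had the lowest ratio of the branch in Mino: 50.9 FPKM in the Mino control against 33.3 in the Mino hairpin library, and 30.3 against 26.9 in Z138. It was 34.7% and 11.4% lower with the hairpin, and its limma coefficient was −0.38 ± 0.14 (moderated SE, adjusted p = 1.00). FASN, the fatty acid synthase, was at 21.4 and 16.97 FPKM in Mino, against 46.9 and 49.5 in Z138. ACLY, which supplies cytosolic acetyl-CoA from citrate, was at 51.5 and 46.0 in Mino, against 48.4 and 49.9 in Z138. Both were lower with the hairpin in Mino and slightly higher in Z138.

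ACSS2, which makes acetyl-CoA from acetate, was at 4.22 and 3.38 FPKM in Mino, against 1.78 and 1.61 in Z138. ACACA, acetyl-CoA carboxylase, the committed step, was nearly level at 3.27 and 3.16 in Mino, against 3.65 and 3.99 in Z138. ELOVL6, the elongase of palmitate, was at 0.797 and 1.26 FPKM in Mino, against 5.73 and 5.83 in Z138. It was the 1 gene of the 32 that was 1.2-fold or more higher in Mino, from a level near 1 FPKM; its Z138 ratio was 0.02, and −0.11 when corrected.

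The desaturases of polyunsaturated fatty acids, which lie side by side on chromosome 11, had unlike values. FADS1 was at 13.2 and 13.6 FPKM in Mino, against 3.02 and 2.66 in Z138. FADS2 was at 35.6 and 32.8 in Mino, against 1.65 and 0.884 in Z138, where the hairpin library was 46.4% lower. At that level FPKM + 1 understates the difference: the Z138 log2 ratio was −0.49, and the limma coefficient over both lines went from −0.30 to −0.47 with a pseudocount of 0.1, past that of SCD (−0.39).

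The sterol enzymes had the lower median in both lines as deposited, by an amount that depended on the processing in Z138, and in Mino the order itself depended on the filter. The median log2 ratio of the 18 sterol enzymes was −0.19 in Mino and −0.20 in Z138, and that of the 8 fatty acid genes −0.14 and −0.04. Below 0 were 13 of 18 sterol enzymes in Mino, 16 in Z138 and 12 in both, and 6, 4 and 3 of 8 fatty acid genes. The sterol median was lower than the fatty acid median by 0.05 in Mino (difference −0.05) and by more in Z138 (−0.16). For a single gene, the SD of the ratio between the 2 lines had a median of 0.124 for sterol enzymes and 0.182 for fatty acid genes. With the GC and length trends removed, the Z138 sterol median moved to −0.12, and the difference between branches was −0.06 in each line. At a mean of at least 5 FPKM, which kept 28 of the 32 genes, the Z138 fatty acid median was −0.14 and the difference there −0.06, and in Mino the order turned, with −0.13 for sterol enzymes and −0.16 for fatty acid genes. Genes of a branch are not replicates, so these medians carry no test.

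The ratios of the 32 genes in one line did not rank like those in the other (Spearman −0.01 across 32 genes that share their libraries, against −0.17 across all tested genes, as a description). Mino had its lowest ratios at INSIG1, SCD, MSMO1, HMGCS1 and SQLE. Z138 had them at FADS2, SQLE, LSS, STARD4 and DHCR7. SQLE was the 1 gene on both of these short lists. With corrected ratios INSIG1 was on both as well (−0.69 in Mino and −0.33 in Z138), in place of DHCR7 in Z138 (−0.25).

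By level, FDFT1, INSIG1, FDPS and SREBF2 led the 32 genes in the Mino control, at 120 to 154 FPKM. In the Z138 control the order was FDPS at 118, PMVK at 68.3, SREBF2 at 56.5 and EBP at 49.9, and FDPS also led both hairpin libraries, with the uncertainty from its pseudogenes. The lowest were ELOVL6 and ACACA in Mino, and STARD4, SC5D and FADS2 in Z138. The summed level of the 18 sterol enzymes was 696 and 620 FPKM in Mino and 459 and 397 in Z138. That of the 8 fatty acid genes was 181 and 150 in Mino and 141 and 141 in Z138.

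**Figure D3:**
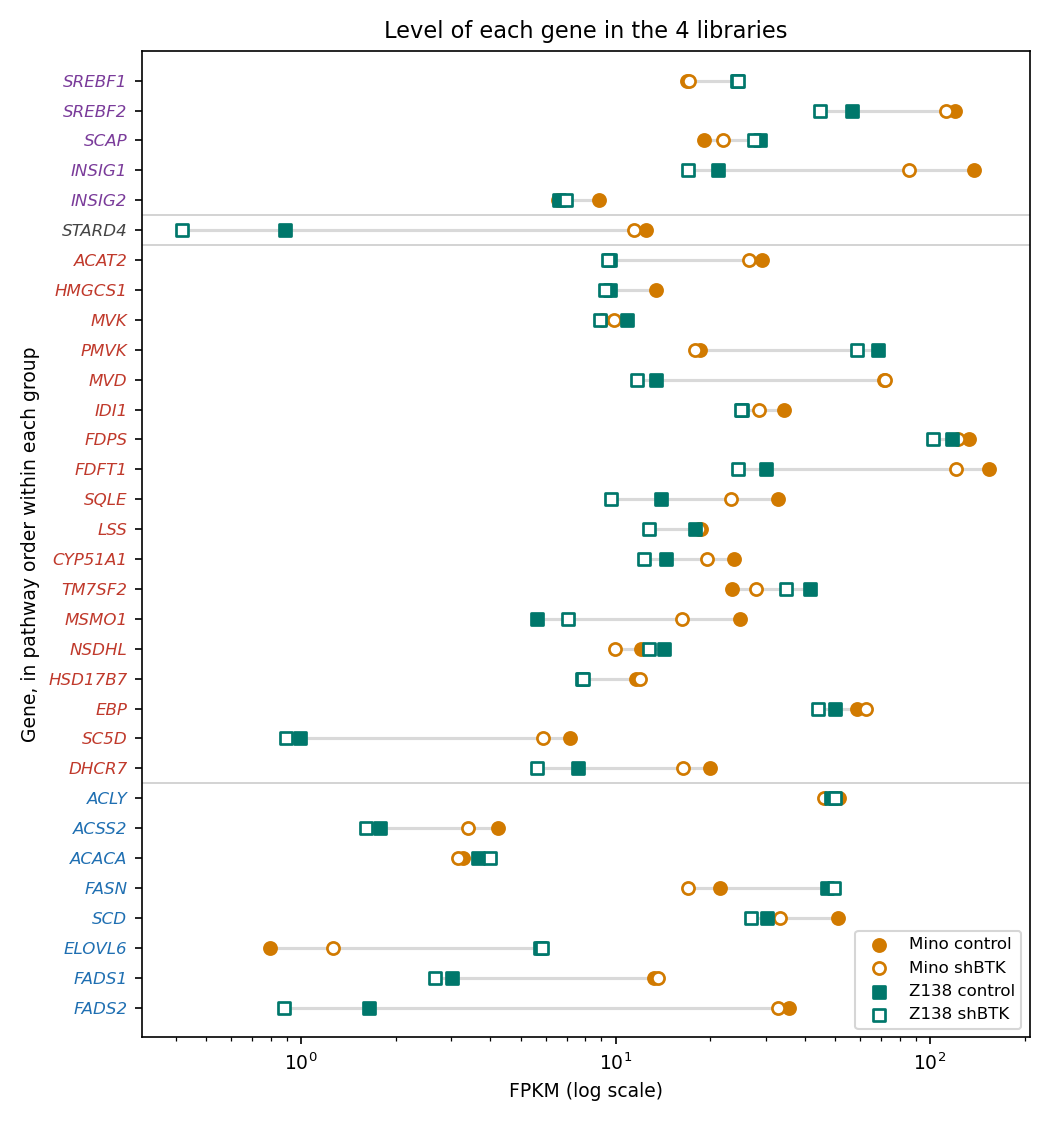
Level of each of the 32 genes in FPKM (log axis) in the 4 libraries, circles for Mino and squares for Z138, filled for control and open for hairpin. Symbols of one line mostly lie close together, and STARD4, FADS2, INSIG1, FDFT1 and MVD show wide gaps between the lines.

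Of the 32 genes, 23 differed between Z138 and Mino at an adjusted p under 0.05 in limma, close to the share over all genes (67.4%): 17 were lower in Z138 (38.8% of all genes were) and 6 were higher (28.7%). The 2 libraries of a line stand for it here, with the vector as a term, so differences between cultures cannot be told apart from those between lines. CCND1 and the summed T cell markers moved with the line too, as given above, and their part in these differences was not tested. The split of calls depends on the scaling: lower calls were 57.5% of all genes called as deposited and 44.4% with libraries scaled to an equal median, which moved the median of all genes from −0.12 to 0.09. Among the 32 genes that scaling gave 14 lower and 8 higher. Scaling to an equal 75th percentile gave 16 and 7, with 51.1% of all calls lower.

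The genes lower in Z138 included the regulators INSIG1 and SREBF2, STARD4, 10 sterol enzymes and 4 fatty acid genes. FADS2 was 21.6 times higher in the Mino than in the Z138 control (log2 difference of Z138 minus Mino −3.98 ± 0.15, SE; limma adjusted p = 3.91e-07). STARD4 followed at 14.1 times (−2.99 ± 0.15; limma adjusted p = 1.27e-06). SC5D was 7.21 times higher in the Mino control, INSIG1 6.52 times, MVD 5.31 times and FDFT1 5.14 times, with log2 differences of −1.95, −2.46, −2.43 and −2.29. The place of SC5D depends on the pseudocount, since at 0.1 it was at −2.66 and INSIG1 at −2.52. These 6 genes do not share a step, since they desaturate fatty acids, carry sterol, desaturate it, sense it, make isopentenyl diphosphate and join farnesyl units. FADS1 (−1.91), MSMO1 (−1.53), ACAT2 (−1.45), DHCR7 (−1.34), SREBF2 (−1.19) and SQLE (−1.18) were also lower in Z138 by more than 1 on the log2 scale. ACSS2, CYP51A1, HSD17B7, SCD and EBP were lower by less, and of these EBP, SCD and HSD17B7 no longer passed with libraries scaled to an equal median.

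The 6 genes higher in Z138 were SREBF1, SCAP, PMVK, TM7SF2, FASN and ELOVL6. ELOVL6 had a log2 difference of 1.75 ± 0.15, PMVK of 1.74 ± 0.13 and FASN of 1.29 ± 0.14 (SE; limma adjusted p of 2.06e-05, 8.80e-06 and 8.90e-05). FASN and ELOVL6, which make and elongate palmitate, were thus higher in the line in which the desaturases SCD, FADS1 and FADS2 were lower. Among the regulators SREBF1 (0.50) and SCAP (0.44) were higher and SREBF2 and INSIG1 lower in Z138. The other 9 differences did not pass the test: INSIG2, HMGCS1, MVK, IDI1, FDPS, LSS, NSDHL, ACLY and ACACA.

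**Figure D4:**
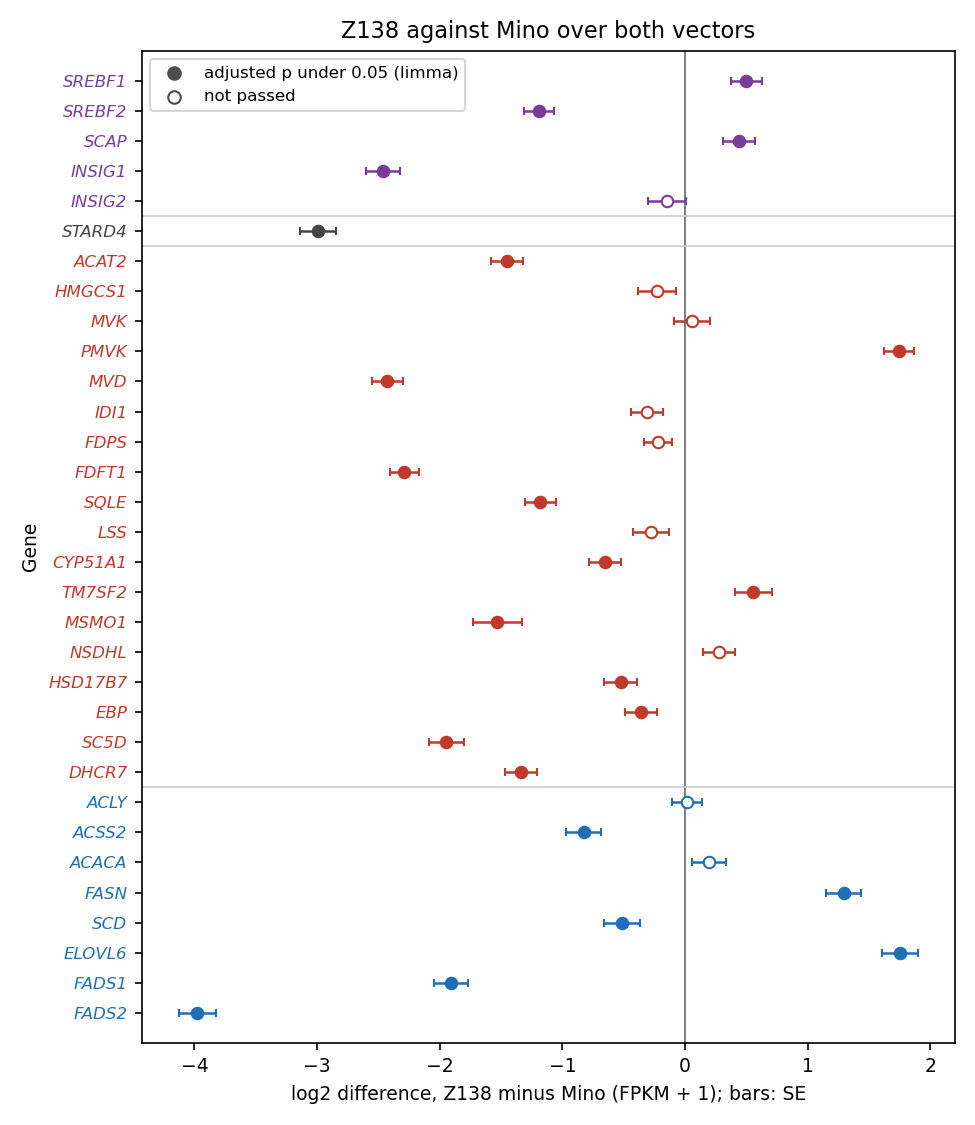
Log2 difference of Z138 minus Mino (FPKM + 1) of each of the 32 genes over both vectors, with the SE as bars; filled circles had a limma adjusted p under 0.05. FADS2, STARD4, INSIG1, MVD and FDFT1 lie furthest to the left, and PMVK, ELOVL6 and FASN furthest to the right.

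Of the 6 lists of neighbouring pathway genes no gene passed the hairpin test in limma, where 0.122% of all genes did. At an unadjusted p under 0.05 in limma there were 2, both in the list of other sterol genes. The lists held 11 (other sterol genes), 13, 14, 17, 21 and 15 tested genes, and 320 of all 11484 genes were under that p. In the isoprenoid branch, which uses farnesyl diphosphate for prenyl groups, dolichol and ubiquinone in place of sterols, the ratios lay more often above 0. Of 13 tested genes all 13 were above 0 in Mino, where 5474 of all 11484 genes were. In both lines 9 were above 0 (23.1% of all genes) and 0 below 0 (19.4%), with medians of 0.14 and 0.05. Corrected, the medians were again 0.14 and 0.05. Below 0 were then 1 of the 13 in Mino (51.6% of all genes) and 5 in Z138 (41.8%), against 0 and 4 before. GGPS1, which makes the longer geranylgeranyl diphosphate, was at 6.77 and 8.29 FPKM in Mino, against 7.80 and 8.75 in Z138. FNTA and PGGT1B, subunits of the enzymes that attach prenyl groups, had ratios of 0.13 and 0.23, and of 0.22 and 0.10.

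In the list of SREBP processing and sterol-regulated degradation (14 tested), 3 genes were below 0 in both lines and 4 above, with medians of −0.03 and 0.05. Over all genes 19.4% were below and 23.1% above 0 in both lines, shares that apply to the lists below too. Corrected, the Z138 median of this list was −0.02, with 9 of 14 below 0 (41.8% of all genes), against 5 before. MBTPS1, the first protease that cuts SREBPs, was at 25.9 and 23.7 FPKM in Mino, against 31.1 and 29.8 in Z138. ERLIN1 and ERLIN2, which hold the degradation machinery of sterol enzymes, had ratios between −0.10 and −0.03. In sterol storage, traffic and efflux (17 tested), 2 were below and 6 above 0 in both lines, with medians of 0.01 and 0.11. The lysosomal sterol exporters were on opposite sides: NPC1 was at 12.2 and 15.04 FPKM in Mino, against 9.19 and 10.6 in Z138, while NPC2 was at 169 and 146 and at 63.9 and 53.9. LIPA, the lysosomal lipase, had ratios of 0.12 and 0.09.

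Of 11 tested other sterol genes, 4 were below 0 in both lines and 1 above, LBR, a second sterol reductase, at 31.3 and 34.4 FPKM in Mino and 73.7 and 84.1 in Z138. Their medians were −0.09 and −0.13. Other genes of fatty acid synthesis, elongation and activation (21 tested) had medians of 0.01 and 0.04, with 3 below and 4 above 0 in both lines. Corrected, their Z138 median was −0.04, with 13 of 21 below 0 there (41.8% of all genes), against 10 before. OXSM, the mitochondrial synthase, had ratios of 0.27 and 0.18, PTPLB, a dehydratase of elongation, 0.09 and 0.20, and ELOVL5 −0.09 and −0.07. Genes of fatty acid oxidation (15 tested) had medians of 0.01 and 0.03, with 2 below and 5 above 0 in both. CPT1A, the gate of mitochondrial uptake, had ratios of −0.06 and −0.11, ACADM 0.08 and 0.21, and HADH 0.11 and 0.08.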

How the data were processed

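Mino and Z138 cells, each with control vector or BTK hairpin, gave 1 library each, 4 in all. The authors deposited 1 table of FPKM values per gene symbol, per the file headers. TopHat and hg19 appear in the submitters' processing notes with no version, with the program behind FPKM not given in the sources used here. FPKM keeps no depth here, so the reads behind a value are unknown and no counting interval is given. Ratios and tests used log2(FPKM + 1), a pseudocount that understates changes of low genes, for 11484 symbols averaging at least 1 FPKM. The model was fitted with limma 3.58.1 in R 4.3.3 (line and vector as additive terms, mean-variance trend, 1 residual degree of freedom, Benjamini-Hochberg over all symbols at 0.05). It was also run on simulated data in which both lines had the same changes and no GC trend. That run does not cover unlike responses of the lines or the GC trend seen in Z138. The p-values and SEs of limma rest on a moderated error. It came more from the variance trend over all genes (6.88 prior degrees of freedom) than from how alike the 2 lines responded. They do not measure the spread between cultures. GC content and length came from GENCODE release 29 (GRCh38, 98.0% of tested symbols), and their trends were removed with natural splines of 4 degrees of freedom. Of the 6 pathway lists, up to 3 genes each were named: called genes, or else those at a mean of at least 5 FPKM with ratios of one sign in both lines, by the smaller ratio. Another 2 genes picked by that rule are not reported here, though list counts include them. The genes and lists were chosen with earlier results of these data known.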

Additional observations from a re-analysis of the deposited data

Results flagged for a closer look

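In 2 of the 32 genes the hairpin ratio had opposite signs in the 2 lines, with at least a 1.1-fold difference in each, a minimum chosen after the values had been seen. MSMO1 was at −0.58 in Mino and at 0.28 in Z138 on the log2 scale, so that Z138 minus Mino was 0.85. TM7SF2 had 0.25 and −0.25, a difference of −0.50. Neither difference was tested, since each line had 1 library per vector. With the GC and length trends removed the ratios were −0.58 and 0.16 for MSMO1 and 0.21 and −0.12 for TM7SF2, of opposite sign still. On that scale TM7SF2 no longer reached the 1.1-fold minimum in Z138, and FASN did in both lines, at −0.27 and 0.16. Opposite ratios at that minimum were then found in 2 of the 32 genes, against 9.45% of all genes. They were thus not more frequent among the 32.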

How the results depend on the processing

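The 10 alternatives were another pseudocount (0.1), no filter, a mean of at least 5 FPKM, symbols listed at 0 left out, scaling to an equal median or 75th percentile, GC and length trends removed, no line term, no vector term and no mean-variance trend. None of the 32 genes (28 tested at a mean of at least 5 FPKM) passed the hairpin test under the 9 that bear on it; the lowest adjusted p of a member in limma was 0.211 (SQLE, equal median) and 0.340 with symbols listed at 0 left out, where 28 of all genes passed, against 33 with equal medians, 14 as reported, 9 at a mean of at least 5 FPKM, 7 without GC and length trends and 2 with no filter. Without the line term 0 of all genes passed in limma. Between the lines 22 to 24 of the 32 genes passed, and 20 of 28 at a mean of at least 5 FPKM. The sign of the mean hairpin ratio turned in SREBF1 with equal medians (−0.0097), and in TM7SF2 (0.046) and HSD17B7 (−0.019) without GC and length trends. Equal medians also turned the line difference of INSIG2 (0.059) and FDPS (0.015), neither of which had passed, and lifted NSDHL and ACACA past the threshold, and took EBP, SCD and HSD17B7 below it; EBP also missed it with no filter and with equal 75th percentiles, SCD with no vector term, NSDHL passed with equal 75th percentiles and IDI1 without GC and length trends. The cause was not tested. With 1 library per line and vector, no library can be left out without leaving a line that has no comparison, so each line is given alone. The number of reads behind low genes such as STARD4, SC5D, ELOVL6 and FADS2 in one line is unknown.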
